A study of Mus musculus with 12 samples.

Results

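The apolipoproteins described here are the protein parts of plasma lipoproteins that hepatocytes make and secrete, and they were taken as 10 gene rows by symbol: Apoa1, Apoa2, Apoa4, Apoa5, Apob, Apoc1, Apoc2, Apoc3, Apoe and Apoh. Of these 10 rows, 8 had values among the 16116 gene symbols of the table, and Apoa4 and Apoc2 were not analysed here. All 8 were among the 10681 genes that passed the filter on low values, a minimum log2 of 1 in 2 or more libraries. None of the 8 passed the test in any comparison. Apoc3, Apoa2, Apoe and Apoh nevertheless averaged lower in all 4 groups with activated YAP signalling than in their controls, by 0.36 to 0.50 on the log2 scale over the 4 groups, whereas Apob and Apoa1, the main proteins of the low-density and high-density particles, differed from the controls by 0.11 and -0.09.

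Lipoproteins carry triglyceride and cholesterol through blood. In the hepatocyte, Apob is loaded with lipid in the endoplasmic reticulum to form very-low-density lipoprotein, and Apoa1 and Apoa2 leave the cell to form high-density lipoprotein. The small exchangeable apolipoproteins ride on both: Apoc3 and Apoc1 slow the lipolysis and clearance of triglyceride-rich particles, Apoa5 promotes lipolysis, and Apoe is the ligand through which remnants bind receptors on the liver. Apoh, also called beta-2-glycoprotein I, is a plasma protein that binds phospholipids. Most of these genes are transcribed at a high level in differentiated hepatocytes, and nuclear receptors such as Hnf4a act on several of them.

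The study asked about Sox9 in hepatocytes with activated Yap, the effector that the Hippo kinases restrain. It comprised 12 mouse libraries in 6 groups of 2, all from hepatocytes of mice injected with AAV at 3 weeks of age and sorted as GFP+ or TdTomato+, Epcam- and CD45- cells. All viruses were AAV2/8 with the TBG promoter, which is active in hepatocytes. In the YAP experiment, cells were sorted 3 weeks after injection. Its control was Wild type with AAV2/8-TBG-GFP, and both activated groups received AAV2/8-TBG-Cre together with AAV2/8-TBG-YAP S127A-P2A-GFP, in Sox9 fl/+ mice (YAP Sox9-heterozygous) or Sox9 fl/fl mice (YAP Sox9-null). S127A removes a phosphorylation site through which the Hippo pathway holds YAP back. In the Mst experiment, cells were sorted 4 weeks after injection, and all 3 groups carried Mst1 fl/fl, Mst2 fl/fl and ROSA26-lsl-TdTomato, the TdTomato reporter being switched on by Cre. Its control received AAV2/8-TBG-GFP, and its activated groups received AAV2/8-TBG-Cre and carried in addition Sox9 fl/+ (Mst Sox9-heterozygous) or Sox9 fl/fl (Mst Sox9-null). Neither control received Cre, and the labels name no group with Cre or the activated YAP in mice with both Sox9 alleles intact, so Cre, loss of 1 Sox9 allele and activation cannot be told apart in a comparison with a control. Nothing in the labels ties the 2 libraries of a group to different mice, and p-values therefore measure only how far libraries lie apart, which may be technical.

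Values are deposited log2 CPM from a panel that reads 1 amplicon per gene, so the level of a gene is compared here only between libraries. Sums over genes, and shares of such sums, mix amplicons and are read between libraries only. The libraries added up to between 879620 and 1011693 CPM over the listed genes, with 9919 to 10392 genes at log2 1 or above. The Sox9 level matched the labels: it was lower in the Sox9-null than in the Sox9-heterozygous libraries by a log2 difference of -2.39 in the YAP experiment (limma, adjusted p = 0.0132) and -4.88 in the Mst experiment (adjusted p = 6.31e-06). The transcripts of Mst1 and Mst2, Stk4 and Stk3, did not pass the test in either Mst group (Stk4 -0.36 and -0.56, Stk3 0.22 and 0.31 on the log2 scale), and the sources used here do not place their amplicons inside or outside the deleted parts. The structure of the table bears on each test below. Averaged over the groups of an experiment, first and second libraries differed by a median absolute value of 0.005 (Mst) and 0.168 (YAP) on the log2 scale. The means of the 2 control groups had been made equal gene by gene (98.9% of tested genes within 0.05 of each other), and the 2 libraries of a group deviated from their mean by whole multiples of a step specific to the gene, in 16080 of 16116 genes. If values had been rounded to 0.01 before that step, the deviations had been multiplied by a median factor of 1.58.

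For the 8 rows, that factor was between 2.33 for Apoe and 3.28 for Apoc3, at the 83rd and 98.8th percentile of the tested genes. Dividing the deviations by it left each group mean where it was and shrank the distance between libraries. Results are given first as deposited.

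The genes lie on 5 chromosomes (GRCm38, GENCODE annotation). Apoa1 (chr9:46228580-46230466, plus strand), Apoc3 (chr9:46232933-46235636, minus strand) and Apoa5 (chr9:46268633-46271919, plus strand) share a cluster of 43.3 kb, in which Apoa1 and Apoc3 are 2.5 kb apart. Apoc1 (chr7:19689481-19692660) and Apoe (chr7:19696109-19699188) lie 3.4 kb apart on the minus strand of chromosome 7. Apoa2 (chr1:171225054-171226379), Apob (chr12:7977648-8016835) and Apoh (chr11:108343354-108414396) stand alone on the plus strand of their chromosomes, Apoh at 4.37 Mb from Sox9 (chr11:112782224-112787760). The first 250 bases upstream of a RefSeq transcript start (GRCm38.p6) are shown for Apoa2 and Apoe, 2 of the 4 genes that averaged lower in every activated group, because these windows end at the annotated gene start and overlap no annotated exon; capitals mark the letters TATAAA, the only match among the 3 motifs searched.
Apoa2, chr1:171224804-171225053, plus strand: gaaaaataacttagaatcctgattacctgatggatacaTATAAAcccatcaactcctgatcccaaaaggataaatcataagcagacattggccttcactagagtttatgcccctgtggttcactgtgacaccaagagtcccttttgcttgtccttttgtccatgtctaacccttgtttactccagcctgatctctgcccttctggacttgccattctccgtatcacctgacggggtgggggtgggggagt
Apoe, chr7:19699189-19699438, minus strand: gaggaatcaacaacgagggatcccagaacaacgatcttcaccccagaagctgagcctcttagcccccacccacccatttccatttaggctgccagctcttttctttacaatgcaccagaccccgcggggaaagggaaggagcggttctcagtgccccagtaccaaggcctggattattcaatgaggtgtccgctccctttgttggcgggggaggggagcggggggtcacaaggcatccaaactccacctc
The motifs, searched on both strands, were the nuclear receptor half-site AGGTCA, the TATA box TATAAA and the GC box GGGCGG, none of which contains another. The Apoa2 window held TATAAA starting 212 bases before the transcript start, and the Apoe window held none of the 3. RefSeq lists further starts for both genes, and their windows are not printed: for Apoe, 1 such window overlaps no exon and held TATAAA on both strands and 1 overlaps an Apoe exon and held none, and for Apoa2 a window that overlaps an exon of Tomm40l held AGGTCA on the minus strand. Of 32851 windows of the same length, 14.0% held AGGTCA, 12.4% held TATAAA and 32.7% held GGGCGG.

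The large structural proteins of the particles came first. Apob, the non-exchangeable protein of very-low-density lipoprotein, was at 12.79 and 13.38 in the Wild type control libraries, 12.34 and 13.80 in the YAP Sox9-heterozygous libraries, 13.41 and 13.08 in the YAP Sox9-null libraries, 12.91 and 13.23 in the Mst control libraries, 13.29 and 12.93 in the Mst Sox9-heterozygous libraries and 13.34 in both Mst Sox9-null libraries (log2 CPM). The 2 YAP Sox9-heterozygous libraries held both its lowest and its highest value of all 12, and the activated and control ranges overlapped. Averaged over the 4 activated groups, Apob differed from the controls by 0.11 on the log2 scale (SE 0.36, 95% interval -0.65 to 0.88), a ratio of 1.08 with an interval of 0.637 to 1.84. That average was -0.06 with library medians made equal and -0.02 with quantile normalization, so the data set no direction for Apob.

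Apoa1, the main protein of high-density lipoprotein and the activator of the cholesterol-esterifying enzyme Lcat, was at 12.40 and 12.04 in the Wild type control libraries, 11.88 and 12.14 with YAP Sox9-heterozygous, 11.75 and 12.24 with YAP Sox9-null, 12.46 and 11.94 in the Mst control, 12.13 and 12.45 with Mst Sox9-heterozygous and 12.09 and 12.32 with Mst Sox9-null. It had the smallest span of the 8 rows over the 12 libraries, 0.71 on the log2 scale, and both kinds of library covered nearly the same range. Activated groups differed from controls by -0.09 on average (SE 0.27, 95% interval -0.66 to 0.48). By group the Apoa1 difference was -0.21 (Sox9-heterozygous) and -0.23 (Sox9-null) in the YAP experiment. In the Mst experiment it was 0.09 and 0.0006 in the same order.

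Apoa2, the second protein of high-density lipoprotein, was at 12.75 and 12.72 in the Wild type control libraries and 12.81 and 12.62 in the Mst control libraries. It was at 11.98 and 12.56 with YAP Sox9-heterozygous, 12.77 and 11.81 with YAP Sox9-null, 11.92 and 12.66 with Mst Sox9-heterozygous and 12.33 and 11.75 with Mst Sox9-null. Thus 6 of 8 activated libraries lay below the lowest control library, and 1 library of the YAP Sox9-null group and 1 of the Mst Sox9-heterozygous group lay inside the control range. The average difference was -0.50 on the log2 scale (SE 0.31, 95% interval -1.15 to 0.15), a ratio of 0.706 with an interval of 0.449 to 1.11. The 4 activated groups differed from their controls by -0.46, -0.44, -0.43 and -0.67, in the order YAP Sox9-heterozygous, YAP Sox9-null, Mst Sox9-heterozygous and Mst Sox9-null.

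Among the apolipoproteins that set how fast triglyceride is removed, Apoc3 separated the libraries most. This inhibitor of lipolysis and remnant uptake was at 11.36 and 11.17 in the Wild type control libraries and 11.30 in both Mst control libraries. It was at 10.90 and 11.06 with YAP Sox9-heterozygous, 10.55 and 11.17 with YAP Sox9-null, 11.02 and 10.95 with Mst Sox9-heterozygous and 10.63 and 10.70 with Mst Sox9-null. Of the 8 activated libraries, 7 were below the lowest control library, and the other one, in the YAP Sox9-null group, exceeded that control by less than 0.01. The average difference was -0.41 (SE 0.21, 95% interval -0.86 to 0.04; limma, adjusted p = 0.238, shared with Apoh as the smallest adjusted p among the 8 rows in any comparison), a ratio of 0.754 with an interval of 0.552 to 1.03. By group the differences were -0.28, -0.40, -0.31 and -0.63 in the same order as for Apoa2, and they stayed negative in all 18 fits of each comparison, which comprise the main fit and 17 alternatives.

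Apoa5, which promotes the lipolysis that Apoc3 slows, gave no such separation. It was at 11.04 and 10.42 in the Wild type control, 10.39 and 11.48 with YAP Sox9-heterozygous, 11.26 and 9.99 with YAP Sox9-null, 10.51 and 10.98 in the Mst control, 10.91 and 10.72 with Mst Sox9-heterozygous and 10.39 and 10.14 with Mst Sox9-null. The activated libraries reached both above and below the control range, with the extremes in the YAP groups. On average it differed by -0.08 (SE 0.28, 95% interval -0.67 to 0.52), although Apoa5 lies 33.0 kb from Apoc3 in the same cluster.

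Apoc1, a small inhibitor of lipolysis and of remnant uptake, was at 12.16 and 11.85 in the Wild type control, 12.32 and 11.80 with YAP Sox9-heterozygous, 12.24 and 11.37 with YAP Sox9-null, 11.53 and 12.51 in the Mst control, 12.12 and 10.80 with Mst Sox9-heterozygous and 11.43 and 11.72 with Mst Sox9-null. It had the widest span over the 12 libraries, 1.71 on the log2 scale, set by 1 low Mst Sox9-heterozygous library. Over the 4 groups the difference was -0.29 (SE 0.32, 95% interval -0.96 to 0.39), with 0.05 and -0.20 in the YAP groups and -0.56 and -0.44 in the Mst groups.

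Apoe, the receptor ligand of remnants, was at 13.49 and 12.90 in the Wild type control libraries and 13.18 in both Mst control libraries. It was at 12.77 and 12.79 with YAP Sox9-heterozygous, 13.19 and 12.21 with YAP Sox9-null, 12.83 and 13.11 with Mst Sox9-heterozygous and 13.02 and 12.76 with Mst Sox9-null. All 8 activated libraries were below the mean of the 4 control libraries, and 5 were below the lowest of them, which was a Wild type library. Averaged over the groups, the difference was -0.36 (SE 0.32, 95% interval -1.04 to 0.33), a ratio of 0.782 with an interval of 0.486 to 1.26. By group it was -0.41 and -0.50 in the YAP experiment and -0.22 and -0.29 in the Mst experiment.

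Apoh was at 9.86 and 10.63 in the Wild type control, 10.23 and 9.51 with YAP Sox9-heterozygous, 10.33 and 9.93 with YAP Sox9-null, 10.42 and 10.04 in the Mst control, 9.68 and 9.34 with Mst Sox9-heterozygous and 9.32 and 10.04 with Mst Sox9-null. In the Mst experiment all 4 activated libraries lay below both control libraries, whereas in the YAP experiment the ranges overlapped. The second Mst Sox9-null library did so only narrowly, at 10.037 against 10.0425 in the lower Mst control library. The average difference was -0.44 (SE 0.23, 95% interval -0.93 to 0.05), a ratio of 0.737 with an interval of 0.526 to 1.03. By group it was -0.38, -0.12, -0.72 and -0.55.

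**Figure D1:**
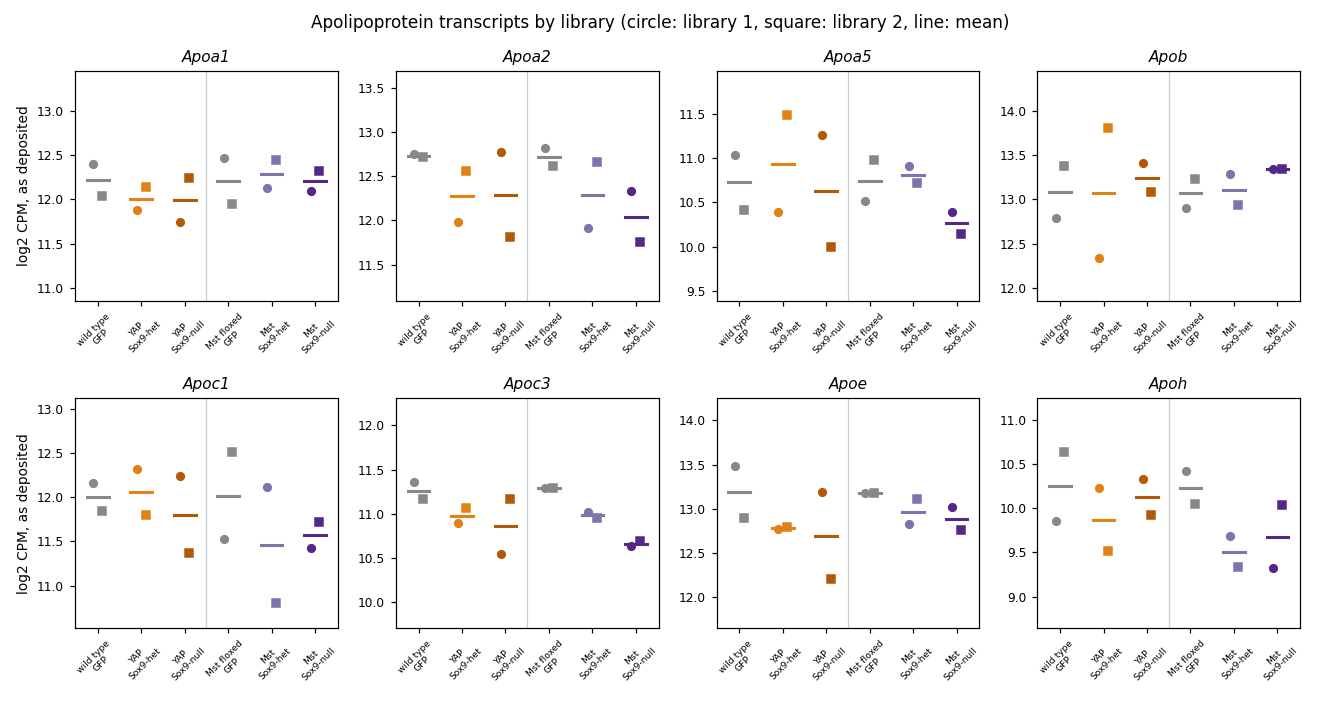
Deposited log2 CPM of the 8 apolipoprotein rows in each of the 12 libraries, 1 panel per gene, with the 2 libraries of a group as a circle and a square and their mean as a line. The 4 control libraries of Apoc3 lie between 11.17 and 11.36 and 7 of 8 activated libraries lie below them, while Apob and Apoa1 libraries intermingle.

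Taking the rows as a group, 0 of 8 passed the test in each comparison of an activated group with its control, where the share of all tested genes that passed was 1.57% in the YAP Sox9-heterozygous group, 7.12% in the YAP Sox9-null group, 4.25% in the Mst Sox9-heterozygous group and 7.76% in the Mst Sox9-null group. These shares move by over 1.5 times on leaving out 1 library (328 to 1003 genes in place of 760 with YAP Sox9-null), while 0 of 8 rows passed each time. For the average over the 4 groups it was 0 of 8 against 13.8% (12.3% higher and 1.49% lower). Over 80 tests (8 rows, 10 comparisons), limma gave no unadjusted p under 0.05, the smallest being 0.0723 for Apoh in the Mst Sox9-heterozygous group, while for the average 26.7% of all genes had one. The median of the 8 differences was nevertheless negative in every activated group while the median of all genes was positive. It was -0.25 against 0.07 with YAP Sox9-heterozygous (6 of 8 negative, against 41.5% of all genes), -0.21 against 0.21 with YAP Sox9-null (7 of 8, against 30.8%), -0.26 against 0.08 with Mst Sox9-heterozygous (5 of 8, against 40.7%) and -0.46 against 0.17 with Mst Sox9-null (6 of 8, against 32.9%). Averaged over the 4 groups it was -0.32 against 0.13, with 7 of 8 negative against 33.4% of all genes. The all-gene median moved by over 0.1 with the scaling, to -0.05 for the average with library medians made equal and -0.07 with quantile normalization. Under these the median of the 8 rows was -0.50 and -0.32, and all 8 averages were then negative.

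The number of rows whose 2 activated libraries both lay below both control libraries differed by group. With YAP Sox9-heterozygous it was 3 of 8 (Apoa2, Apoc3 and Apoe), where 12.6% of all genes did so, and with YAP Sox9-null 0 of 8, where 11.1% did. With Mst Sox9-heterozygous it was 3 of 8 (Apoc3, Apoe and Apoh; 16.1% of all genes), and with Mst Sox9-null 5 of 8 (Apoa2, Apoa5, Apoc3, Apoe and Apoh; 12.8%). In the last group both Apob libraries lay above both control libraries, as 39.6% of all genes did. These are sorted bulk samples, in which fewer cells of a type and less RNA per cell cannot be told apart.

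The precision of the design bounds what could be seen. In a comparison of 2 libraries with 2, the half-width of the 95% interval ran from 0.73 for Apoc3 to 1.25 for Apob on the log2 scale, that is, a ratio of 1.66 to 2.38 either way. For the average over 4 activated groups it ran from 0.45 for Apoc3 to 0.76 for Apob. A change of the size seen in Apoc3 was therefore not detectable as deposited, and a p that missed the threshold does not show that these genes were unaffected.

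**Figure D2:**
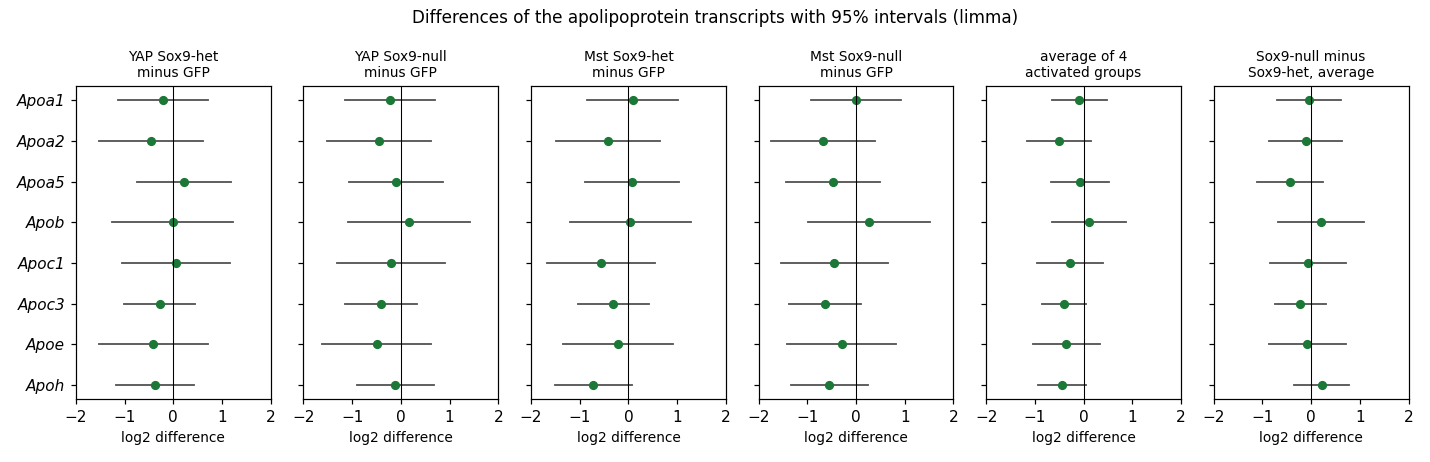
Log2 difference from the control for the 8 apolipoprotein rows in the comparisons named on the panels, with points for the estimate and bars for the 95% interval. Every interval includes 0, and the points of Apoa2, Apoc3, Apoe and Apoh are left of 0 in each activated group.

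Loss of the remaining Sox9 allele was read within each experiment as Sox9-null minus Sox9-heterozygous. None of the 8 rows passed the test in the YAP experiment, where 0.169% of all genes did, or in the Mst experiment, where 0.0468% did, or in their average, where 0.131% did. Apoa5 had the largest average difference, -0.43 (SE 0.32, 95% interval -1.11 to 0.25; limma, adjusted p = 0.744), made of -0.31 in the YAP and -0.55 in the Mst experiment. Apoc3 followed the same direction in both, at -0.12 and -0.32, and Apoh the opposite one, at 0.26 and 0.17. In the Mst experiment, Apoa5 and Apoc3 had both Sox9-null libraries below both Sox9-heterozygous ones (2 of 8 rows, against 7.72% of all genes), and Apob had them above (1 of 8, against 22.8%). In the YAP experiment every row overlapped, while 5.12% of all genes had both Sox9-null libraries lower and 23.1% had both higher. The averages of the other 5 rows were 0.20 for Apob and between -0.11 and -0.05 for Apoa1, Apoa2, Apoc1 and Apoe. The median of the 8 was -0.08, against 0.13 for all genes.

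The 2 ways of activating the pathway did not differ in any of the 8 rows by the test of the difference itself (0 of 8, against 0.403% of all genes; smallest adjusted p by limma 0.908). The largest differences, Mst minus YAP, were -0.43 for Apoc1 (95% interval -1.78 to 0.92) and -0.39 for Apoh (95% interval -1.36 to 0.58). The effect of Sox9 loss did not differ between the experiments either (0 of 8, against 0% of all genes), and the largest difference was 0.37 for Apoc1 (95% interval -1.19 to 1.93). The 2 experiments also differ in virus, reporter and time after injection, which cannot be told apart from the way of activation.

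The calls differed with the spread between libraries. An added alternative, chosen after seeing the data, divided each gene's deviations by its own factor and repeated the fit with group means unchanged. On that scale, the control and activated libraries of Apoa2 ran from 12.69 to 12.75 and from 11.95 to 12.44, those of Apoc3 from 11.23 to 11.30 and from 10.66 to 11.01, and those of Apoe from 13.07 to 13.32 and from 12.49 to 13.03. All 8 activated libraries of these 3 genes were then below all 4 control libraries, as 2.41% of all genes were, where as deposited none of the 8 rows and 0.59% of all genes were. Apoh had 7 of 8 activated libraries below the lowest control, the exception being a YAP Sox9-null library at 10.19.

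In that fit, 4 of 8 rows were lower over the average of the 4 activated groups by limma: Apoc3 (SE 0.07, adjusted p = 0.000841), Apoa2 (SE 0.09, adjusted p = 0.00153), Apoh (SE 0.08, adjusted p = 0.00245) and Apoe (SE 0.10, adjusted p = 0.0155), where 36% of all genes passed in either direction and 7.57% were lower. By group, no row was called with YAP Sox9-heterozygous (11.5% of all genes). With YAP Sox9-null, 3 were lower (Apoa2, Apoc3 and Apoe; 27.5% of all genes in either direction, 4.31% lower), and with Mst Sox9-heterozygous 1 (Apoh; 19.7%, 5.92% lower). With Mst Sox9-null, 3 were lower (Apoa2, Apoc3 and Apoh; 26.4%, 5.07% lower). Apoa5 was lower with Sox9 loss averaged over both experiments (adjusted p = 0.0495, where 7.62% of all genes passed and 0.88% were lower). No row passed for Sox9 loss within the YAP (4.36% of all genes) or the Mst experiment (1.69%), or for a difference between experiments in activation (7.33%) or in Sox9 loss (0.543%). Apoa1, Apob and Apoc1 passed in no comparison in that fit either. Which spread is the truer one was not tested, and the 4 averages are the same size on both scales.

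**Figure D3:**
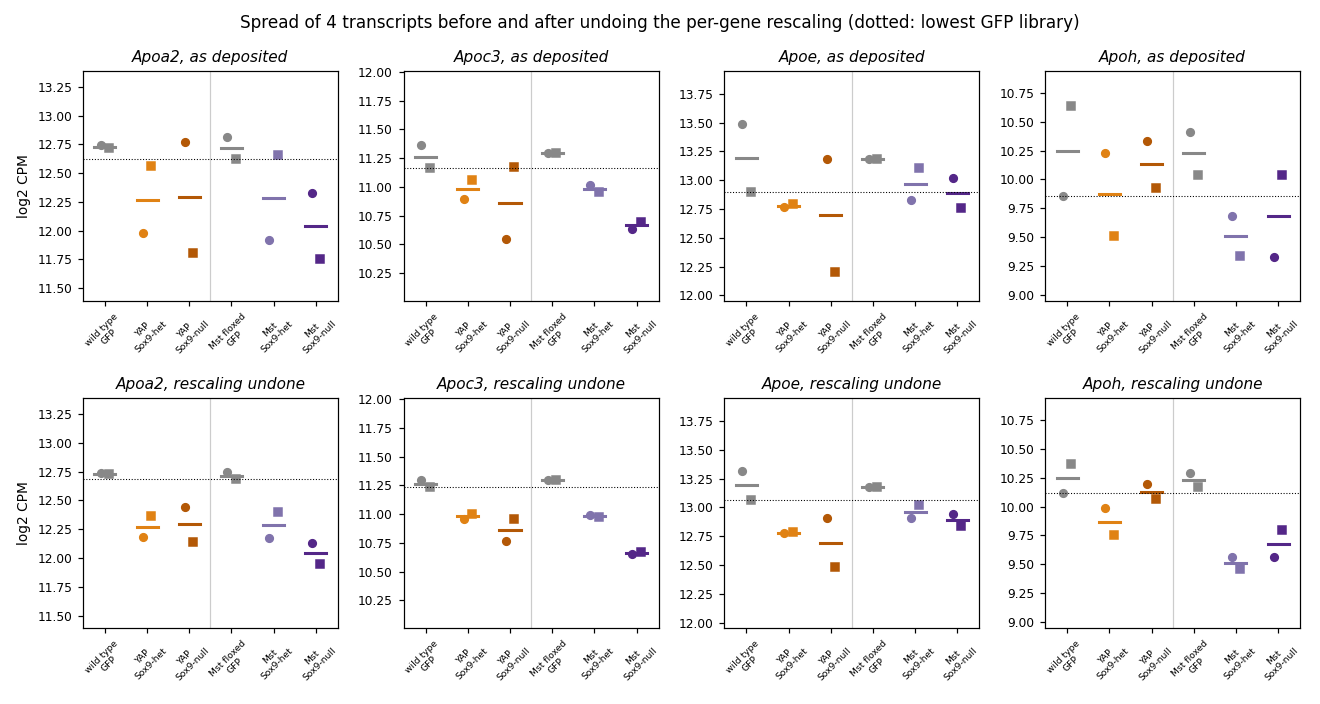
Log2 CPM of Apoa2, Apoc3, Apoe and Apoh by library as deposited (top) and with deviations from the group mean divided by each gene's factor (bottom); circles and squares are the 2 libraries of a group, short lines their mean, and the dotted line is the lowest control library. As deposited the activated and control ranges of all 4 overlap, and after the division the ranges of Apoa2, Apoc3 and Apoe no longer overlap.

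Summed on the linear scale, the 8 rows made up 4.67% and 4.15% of all listed CPM in the Wild type control libraries and 4.21% and 4.58% in the Mst control libraries. The share was 3.14% and 4.39% with YAP Sox9-heterozygous, 4.02% and 2.97% with YAP Sox9-null, 3.68% and 3.58% with Mst Sox9-heterozygous and 3.44% and 3.30% with Mst Sox9-null. The activated Mst libraries and the YAP Sox9-null libraries were below their controls without overlap, while 1 of the 2 YAP Sox9-heterozygous libraries lay inside the control range. Within a group, the first library was the higher one for 6 of 8 rows in the Wild type control and in the YAP Sox9-null group and for 2 of 8 in the YAP Sox9-heterozygous group. It was so for 3 of 8 in the Mst control (2 rows equal), 5 of 8 with Mst Sox9-heterozygous and 3 of 8 with Mst Sox9-null (1 row equal).

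The other genes of lipoprotein metabolism were taken from 5 lists, and each count below is read beside the shares of all genes given above. Of the 27 tested genes of assembly and secretion, 0 passed in any comparison, with a median of 0.07 over the average of the 4 activated groups, against 0.13 for all genes, and 1 of 27 at an unadjusted p under 0.05, against 26.7% of all genes. Mttp, which loads lipid onto Apob and is named for that role, differed by -0.10 (SE 0.22, limma adjusted p = 0.818). Of 10 other tested genes with apolipoprotein names, 0 passed in any comparison, and over the average their median was -0.11, with a range of -0.55 to 0.43, a smallest adjusted p by limma of 0.0919 and 3 of 10 at an unadjusted p under 0.05, where 26.7% of all genes were.

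Several receptors that take up lipoproteins and lipids passed the test. Of 12 tested, 4 rose on average (Cd36, Stab2, Mylip and Scarb1) and 0 fell, with a median of 0.31 against 0.13 for all genes. Cd36, a receptor for fatty acids and oxidised lipoproteins, was at 5.46 and 7.37 in the Wild type control and 6.62 and 6.23 in the Mst control. It was at 9.12 and 8.38 with YAP Sox9-heterozygous, 10.35 and 9.74 with YAP Sox9-null, 9.17 and 9.57 with Mst Sox9-heterozygous and 9.54 in both Mst Sox9-null libraries. All 8 activated libraries were above all 4 controls, but the share of all genes that were so is not given here. Cd36 rose in each group, by 2.34, 3.64, 2.94 and 3.11 on the log2 scale (limma, adjusted p = 0.0129, 0.00012, 0.000972 and 0.000438). The first of these calls was lost without the first Wild type control library or without the first YAP Sox9-heterozygous library (adjusted p up to 0.188). Scarb1, the high-density lipoprotein receptor, rose by 0.68 on average (SE 0.19, adjusted p = 0.0284) and Mylip, which marks low-density lipoprotein receptors for degradation, by 1.55 (SE 0.42, adjusted p = 0.0205). Mylip was at -0.22 to 1.14 in the 4 control libraries and passed the filter on low values only through the activated groups, so that its count among the 4 carries no support. The Scarb1 call was lost without the first Wild type control library, the first YAP Sox9-heterozygous library, or either library of the YAP Sox9-null or Mst control group (adjusted p up to 0.223), the Mylip call without the first Wild type control, YAP Sox9-heterozygous or Mst control library (up to 0.121). Vldlr, the very-low-density lipoprotein receptor, rose by 1.84 with YAP Sox9-null (adjusted p = 0.0335), a call lost on leaving out any of the 4 libraries compared (adjusted p up to 0.218).

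Among 20 tested lipases and remodelling proteins, 2 rose on average (Lpl and Gpihbp1) and 1 fell (Pon1), with a median of 0.06. Lpl, the lipase that Apoc3 inhibits and Apoa5 helps, rose by 3.84 with Mst Sox9-heterozygous and by 4.08 with Mst Sox9-null (limma, adjusted p = 0.000269 and 9.99e-05). The Mst libraries were at 9.32, 9.89, 9.54 and 10.14, against 6.36 and 5.16 in their control, whereas the YAP libraries, at 5.97, 4.71, 5.72 and 5.61, lay inside the range of 4.97 to 6.73 of their control or below it. The difference between the experiments was itself past the threshold, at 4.31 (SE 0.63, adjusted p = 0.00497). Gpihbp1, which anchors Lpl to the capillary wall, rose by 2.23 with YAP Sox9-null, 3.11 with Mst Sox9-heterozygous and 2.93 with Mst Sox9-null (adjusted p = 0.0223, 0.00324 and 0.00348). It was at 0.30 to 0.80 in the 4 control libraries, under the filter on low values, which it passed only through the activated groups where it is high, so that its count among the risers carries no support. Its YAP Sox9-null call was lost without either Wild type control library or without the first YAP Sox9-null library. Pon1, an esterase carried on high-density lipoprotein, fell by 1.93 and 1.63 in the Mst groups (adjusted p = 0.00601 and 0.0124) and by 1.16 on average (adjusted p = 0.00247). Both Mst calls were lost without the second Mst control library, and each without 1 library of its own group (the second Mst Sox9-heterozygous and the first Mst Sox9-null library).

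Among the transcription factors known to act on apolipoprotein genes, Ppargc1a rose and Nr0b2 fell on average. Ppargc1a, a coactivator of hepatic lipid and glucose genes, was at 3.60 and 3.73 in the Wild type control, 3.64 and 3.71 in the Mst control and between 4.33 and 5.16 in the 8 activated libraries. All 8 were above all 4 controls, a separation for which the share of all genes is not given here. The average rise was 1.14 (SE 0.16, limma adjusted p = 0.000147), where 12.3% of all genes passed as higher. Nr0b2, a repressor that damps nuclear receptors, fell by 0.86 (SE 0.23, adjusted p = 0.0216). The Nr0b2 call was lost on leaving out the first Wild type control, second YAP Sox9-null or second Mst control library (adjusted p up to 0.135). Hnf4a, named for its role on these promoters, averaged -0.43 (SE 0.20, adjusted p = 0.171). No gene of the 5 lists passed the test for Sox9 loss. Without the filter on low values, adjusted p rose above the threshold, to at most 0.155, for Cd36 and Lpl (in the YAP Sox9-heterozygous group and in the difference between experiments, respectively), Vldlr, Gpihbp1 (YAP Sox9-null and Mst Sox9-heterozygous), Pon1 in both Mst groups, Scarb1, Mylip and Nr0b2. With library medians made equal or quantile normalization, the same happened to Vldlr, Gpihbp1 with YAP Sox9-null and Scarb1, and with the second of these to Mylip.

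**Figure D4:**
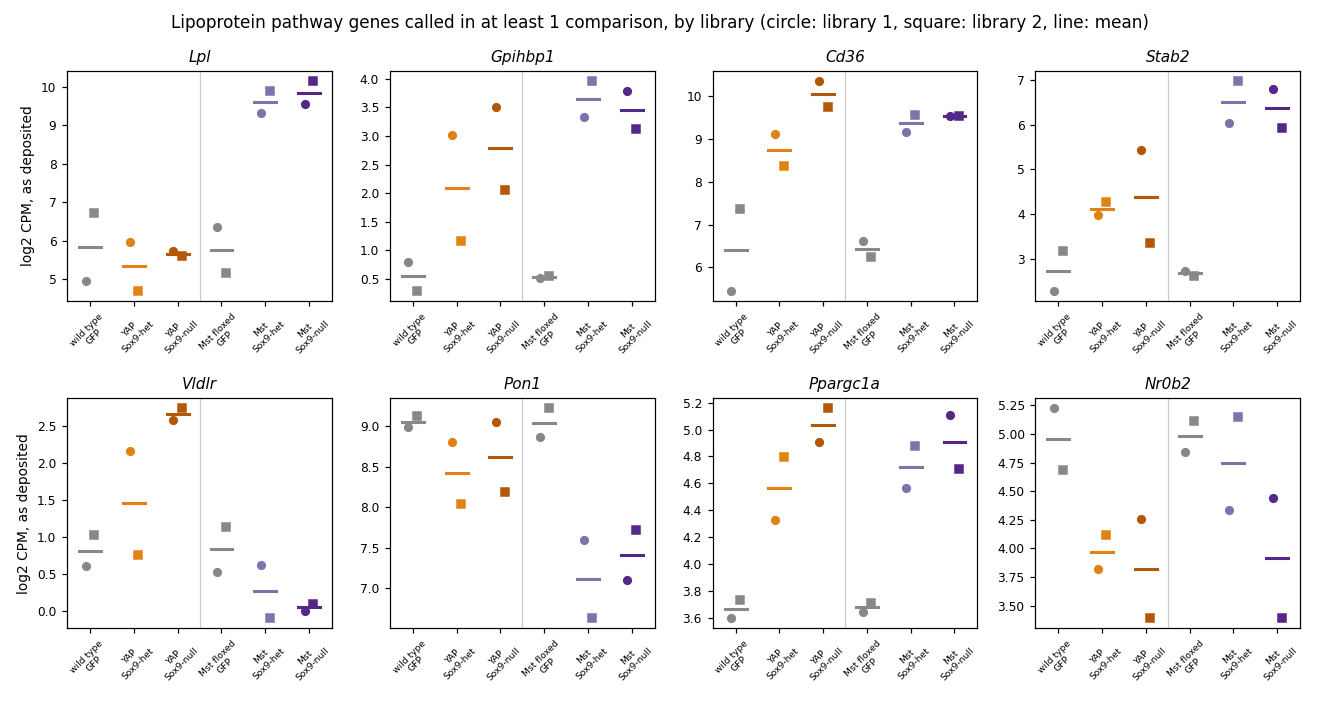
Deposited log2 CPM of 8 lipoprotein pathway genes that passed the test in at least 1 comparison, with the 2 libraries of a group as points and their mean as a line. Lpl is at 9.32 to 10.14 in the 4 activated Mst libraries and at 6.73 or below elsewhere, and Cd36 and Ppargc1a are above all controls in all 8 activated libraries.

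Several markers of other cell types were higher with activation. The counts for the average below stand beside 12.3% of all genes that passed as higher and 1.49% that passed as lower. The summed level of 8 hepatocyte markers in the table (of 14 listed) was 66829 to 82459 CPM in the control libraries. In the activated libraries it was 61233 to 95137 CPM, so the ranges overlapped. Alb weighs most in that sum, at log2 14.86 to 15.53 in the controls and 14.96 to 16.03 in the activated libraries. A sum without Alb was not taken, so the overlap does not speak for the other markers. Of the 8 tested, 2 passed on average, Ttr and Tat, both lower, by 1.11 and 1.03 on the log2 scale (limma, adjusted p = 0.00755 and 0.0378). Among the 8 averages, 5 were negative, with a median of -0.11 and a highest value of 0.15, against a median of 0.13 for all genes. The 12 endothelial markers summed to 26.6 to 65.2 CPM in the controls, 109 to 293 CPM in the YAP groups and 325 to 419 CPM in the Mst groups, and 10 of the 11 that were tested passed on average, all higher, of which Lyve1 passed the filter only through the activated groups. These include Stab2, also counted as a lipoprotein receptor above, and Gpihbp1 and Cd36 are also known from capillary endothelium. The 14 macrophage markers, cells that also transcribe Apoe, Cd36 and Lpl, summed to 27.7 to 87.5 CPM in the controls and 53.4 to 346 CPM in the activated groups. The highest sum was that of 1 Mst Sox9-null library, the other being at 84.0 CPM. The YAP Sox9-heterozygous sums, 55.7 and 56.0 CPM, lay inside the control range. Of the 12 tested, 2 passed on average, Csf1r and Cd68, both higher (1.18 and 0.96), and 2 were negative. That count is near the share of 12.3% of all genes. The 11 cholangiocyte markers in the table summed to 172 to 358 CPM in the controls and 1280 to 3837 CPM in the activated groups, Sox9 itself being one of them. Spp1 alone held 63.8% to 79.7% of that sum in the controls and 89% to 96% in the activated libraries, and without it the sums were 62.4 to 72.8 and 109 to 229 CPM. The 12 stellate cell markers summed to 39.0 to 54.8 CPM in the controls, 40.3 to 82.1 CPM in the YAP groups and 69.5 to 107 CPM in the Mst groups. Of the 8 tested, 2 passed on average, Dcn and Rgs5, both higher (1.59 and 1.05; limma, adjusted p = 0.00252 and 0.0167). Without passing, 1 of the 8 went the other way: Reln (-0.91), at 4.21 to 4.55 in the controls and 2.36 to 4.48 in the activated libraries. The 7 markers of T, NK and B cells were each under 1 CPM in all groups. The part of other cell types in the changes of Cd36, Stab2, Lpl and Gpihbp1 was not tested.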

How the data were processed

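Per the labels' protocols, total RNA of sorted mouse hepatocytes was made into sequencing libraries on an Ion AmpliSeq panel that covers the mouse transcriptome. The authors deposited 1 table of log2 CPM for 16116 gene symbols in 12 libraries, a scale the labels call RPM. Not given in the sources used here are the genome build, how reads were aligned and counted, the added constant and later steps. The deposited values do not step in whole reads, so depth in reads is unknown.

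Genes that reached log2 1 in 2 or more libraries were tested with limma 3.58.1 (R 4.3.3) in 1 fit of 6 group means with a trended prior variance, and p-values were two-sided and adjusted by the Benjamini-Hochberg method over all 10681 genes, with calls at adjusted p under 0.05. The 10 comparisons were each activated group against its control, Sox9 loss in each experiment, both averages and both differences between experiments. The average uses each control once.

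All 8 rows present are named. From the other lists a gene is named where called, at most the 3 largest rises and falls per list and comparison, and the rest are counted, with exceptions stated in the text. A result on the transcription factor list is not reported here, and that list is given without its counts. Genes of most similar pattern were to be named for called rows only, so none is. The members, lists and tests were chosen with earlier results of these data known. Alternatives were no filter, equal library medians, quantile normalization, a pseudocount of 1 on the linear scale, a replicate block, leaving out each library, and, added after seeing the data, dividing deviations from the group mean by the factor recovered per gene (step over an assumed rounding unit of 0.01, to a tolerance of 4e-06). The fit was tested on simulated data. Sequences are from RefSeq (GRCm38.p6), which matched 8 of the 10 symbols, and gene positions from GENCODE (GRCm38). The sources name no build for the table, so positions come from symbols.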

Additional observations from a re-analysis of the deposited data

Results flagged for a closer look

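Lpl, the gene of lipoprotein lipase, differed between the experiments in its response to activation: the Mst minus YAP difference was 4.31 on the log2 scale (limma, adjusted p = 0.00497), with a rise in 4 of 4 activated Mst libraries. It stayed between 3.42 and 5.19 on leaving out 1 library at a time (adjusted p up to 0.0315) and did not pass without the filter on low values (adjusted p = 0.146).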

How the results depend on the processing

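No apolipoprotein row was called under any alternative chosen at the outset, and all 1360 values (8 rows, 10 comparisons, 17 alternatives) stayed on the same side of the threshold. Leaving out each library in turn gave 0 rows called in each comparison. Deviations of same-numbered libraries correlated at -0.12 to -0.06 between YAP groups and at -0.64 to -0.31 between Mst groups. Averaged over the Mst groups, first and second libraries were also nearly equal gene by gene (median absolute difference 0.005, against 0.168 in the YAP groups). The Mst libraries were thus not independent as deposited, which the main fit does not allow for. The replicate block also called 0 of 8 rows. Dividing out the recovered factor gave 3 called rows with YAP Sox9-null, 1 with Mst Sox9-heterozygous, 3 with Mst Sox9-null, 4 for the average and 1 for average Sox9 loss, in place of 0, by the smaller spread that this setting makes. Over all genes, the calls for the average rose from 1477 to 3845 in that setting. Without the filter, calls fell from 168 to 72, 760 to 369, 454 to 189 and 829 to 416 in the 4 activated groups. YAP Sox9-null gave 484 with equal medians and 449 with quantile normalization. The block gave 39 for Sox9 loss in the YAP experiment (18 without it) and 41 (14) for its average. Leaving out 1 library moved the all-gene calls to between 92 and 291 with YAP Sox9-heterozygous, 328 (without the second YAP Sox9-null library) and 1003 with YAP Sox9-null, 189 and 524 with Mst Sox9-heterozygous, 348 and 981 with Mst Sox9-null, and 979 and 1953 for the average. For Sox9 loss they lay between 4 and 128 in the YAP experiment, 3 and 20 in the Mst experiment and 6 and 115 for the average, and for the differences between experiments between 13 and 50 (activation) and 0 and 18 (Sox9 loss). The values of 128, 115 and 18 came without the first YAP Sox9-heterozygous library, so the printed shares of all genes move with single libraries. Of the calls for the average, 89.2% were higher, against 67% with equal medians and 66.4% with quantile normalization. Of 28 calls of pathway list genes, 14 were lost under at least 1 of the 17 alternatives (60 of 476 values) and none changed sign. Having 2 libraries a group, with no read depth, limits the precision of every value.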
